A study of Caenorhabditis elegans with 2 samples.

Results

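The helix-loop-helix factor genes of Caenorhabditis elegans were described here by where a chromatin remodelling subunit, SWSN-7, was found at them. The members were the protein-coding genes of the WBcel235 annotation whose symbol begins with hlh- or is one of 12 names (hnd-1, lin-22, lin-32, ngn-1, cnd-1, mxl-1, mxl-2, mxl-3, mml-1, ref-1, aha-1 and cky-1), and 37 of 19973 protein-coding genes met that rule, 25 by prefix and 12 by name. The rule used symbols alone and no measured value. Chromatin immunoprecipitation and sequencing with an antibody against GFP was done on whole hermaphrodites of strain OP512, genotype unc-119(tm4063) III; wgIs512, whose transgene gives SWSN-7 a C-terminal GFP-FLAG tag. The animals were L1 larvae collected 6 hours after synchronization, which was by starving larvae hatched from bleached adults. There was 1 group of 2 biological replicates, both carrying the transgene and the unc-119 allele, so no conditions could be compared. Whole animals were used, and a site occupied in few cells cannot be told apart from a weakly occupied one.

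Basic helix-loop-helix proteins bind DNA as dimers through a basic stretch next to a pair of helices, and most of them recognise the E-box, CANNTG. In the worm they include the MyoD, Twist and Hand homologues of mesoderm, the achaete-scute and atonal relatives that specify neurons, and the HES-like and REF-1 repressors, several of them targets of Notch. Others carry a leucine zipper after the helices (the Max, Mondo, TFEB and AP-4 relatives, which act in growth, fat and lysosomal regulation) or a PAS domain (partners in hypoxia and aryl hydrocarbon responses). SWSN-7 is a subunit of the PBAF form of the SWI/SNF complexes, which move nucleosomes with energy from ATP.

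The sequences at 6 of the entries described below are given first: the strongest of hlh-11, hlh-30 and hlh-1, and 3 weaker ones of hlh-11 and hlh-30 for comparison within a gene. They are from the RefSeq WBcel235 assembly, which is ce11, on the strand of the gene, 75 bases on each side of the summit and cut short where an annotated exon began. Capitals mark E-boxes (CANNTG) and runs of GAGAGA or its complement TCTCTC. For hlh-11 they are chrIII:9619319-9619469 and chrIII:9620294-9620444, both on the plus strand. For hlh-30 they are chrIV:4024227-4024377, chrIV:4028279-4028429 and chrIV:4026056-4026206, all on the minus strand, and for hlh-1 the stretch is chrII:4518462-4518573 on the plus strand.
hlh-11 upstream: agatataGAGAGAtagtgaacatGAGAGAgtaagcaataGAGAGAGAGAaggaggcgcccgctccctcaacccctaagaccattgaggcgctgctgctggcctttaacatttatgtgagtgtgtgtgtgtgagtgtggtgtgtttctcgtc
hlh-11 first intron: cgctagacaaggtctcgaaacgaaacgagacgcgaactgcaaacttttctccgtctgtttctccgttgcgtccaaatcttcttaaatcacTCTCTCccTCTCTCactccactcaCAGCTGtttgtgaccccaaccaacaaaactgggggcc
hlh-30 strongest entry: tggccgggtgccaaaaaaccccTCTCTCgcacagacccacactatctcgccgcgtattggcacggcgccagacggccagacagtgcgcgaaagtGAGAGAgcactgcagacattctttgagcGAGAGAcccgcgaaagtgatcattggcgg
hlh-30 before an internal 5′ end: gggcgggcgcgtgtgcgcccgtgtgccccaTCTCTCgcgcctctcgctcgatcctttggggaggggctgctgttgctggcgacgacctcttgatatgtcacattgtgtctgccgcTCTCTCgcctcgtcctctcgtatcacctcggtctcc
hlh-30 entry with CACGTG: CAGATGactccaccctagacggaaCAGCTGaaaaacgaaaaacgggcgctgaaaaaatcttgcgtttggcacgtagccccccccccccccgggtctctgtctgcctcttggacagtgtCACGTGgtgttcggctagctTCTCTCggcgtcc
hlh-1 upstream: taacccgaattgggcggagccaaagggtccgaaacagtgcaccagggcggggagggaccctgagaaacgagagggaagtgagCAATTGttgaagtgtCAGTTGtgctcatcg

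SWSN-7 lay in front of 5 of the 37 helix-loop-helix genes (13.5%, against 15.9% of all protein-coding genes). Of those 5, 3 were of the leucine zipper class, which held 6 of the 37, and at mxl-2 it lay nearer to another gene, ubc-20. An entry of a peak list has a region and a summit, its highest point. The authors kept a list filtered by the irreproducible discovery rate (IDR entries), a measure of how well the replicates rank the same regions. The promoter window took in 1000 bp before and 500 bp after any annotated 5′ end, and IDR summits lay there for 5 members, namely hlh-11, hlh-30, aha-1, hlh-1 and mxl-2. That is 13.5% of 37 (exact Clopper-Pearson interval at 95%, 4.54 to 28.8), against 15.9% of all protein-coding genes, so the family as a whole was near the background. In introns, IDR summits lay in hlh-11 and hlh-30, 2 of 37 members (5.41%, interval 0.661 to 18.2), against 3.52% of the genes that have an intron. Intervals cover counting error over genes. The authors' pooled candidate list, which also holds background, added 7 members with a summit in the window, giving 12 of 37 (32.4%, interval 18.0 to 49.8) against 45.9% of all genes. In introns that list gave 6 of 37 against 20.8%. A candidate summit stood in the window in both replicates' own lists for 10 of 37 members (interval 13.8 to 44.1%), against 36.7% of all genes. The summits of the 2 replicates did not have to coincide. In replicates 1 and 2 the strongest lay at -866 and -654 bp for hlh-13, and at -312 and -965 bp for mml-1. At the other end, 18 of 37 members had no entry in the window or an intron in any of the 4 lists, against 37.7% of all genes. Many worm transcripts are trans-spliced, so an annotated 5′ end can lie downstream of the true start.

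By class, placed by hand from homology, the counts were as follows, and no test was made between classes. The classes are small and were chosen with earlier results of these data known. Genome-wide shares to set beside the window counts are 15.9% (IDR) and 45.9% (pooled). For introns they are 3.52% and 20.8% of genes that have one. Genes without an entry in window or intron in any list make up 37.7%. All 6 leucine zipper genes had a pooled candidate in the window and 3 had an IDR summit, of which that of mxl-2 lay nearer to another gene, ubc-20. Of the 3 PAS genes, 2 had a candidate and 1 an IDR summit. Of the 5 genes grouped with the MyoD, Twist and Hand homologues, a mixed group that also took in hlh-13 and hlh-15, 1 had an IDR summit and the other 4 had no pooled entry in the window. The E protein gene hlh-2 and hlh-33, which was placed in no class, had a candidate alone. Among the 14 achaete-scute and atonal relatives, 0 had an IDR summit, 1 had a pooled candidate in the window (hlh-4) and 1 in an intron (hlh-19), and 9 had no entry in any list. Among the 7 HES and REF-1 genes, 0 had an IDR or a pooled entry, in window or intron, and 6 had none in any list.

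**Figure D1:**
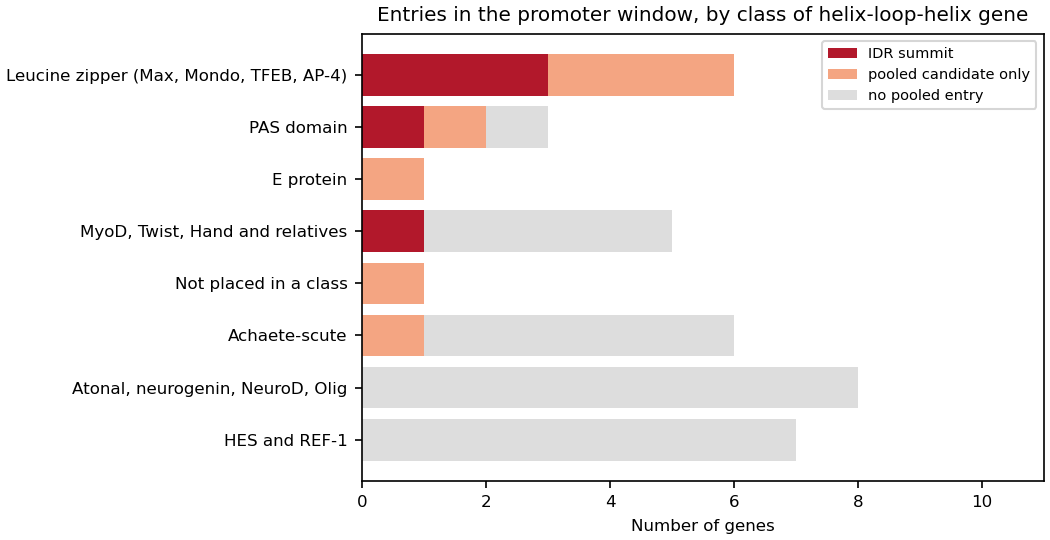
Number of helix-loop-helix genes in each class (bars, in genes) with an IDR summit in the promoter window, with a pooled candidate alone, or with neither. The 6 leucine zipper genes all have an entry, and the 7 HES and REF-1 genes have no pooled one. Of all protein-coding genes, 15.9% have an IDR summit in the window and 45.9% any pooled candidate.

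By their medians, the members with an IDR summit were longer and had wider windows than the others. Their median gene length was 3955 bp, against 1466.5 bp for the other 32, and their windows covered a median of 1994 bp against 1501 bp. This did not hold for each of them. Both aha-1 and mxl-2 had 1 annotated 5′ end and a window of 1501 bp, and mxl-2 was 1183 bp long. With a single annotated 5′ end, 2 of 31 members had an IDR summit in the window, against 13.0% of such genes in the genome. With 4 or more 5′ ends, 3 of 3 did (hlh-1, hlh-11 and hlh-30), against 30.5% of such genes. On the X chromosome 0 of 9 members had one (upper bound of the exact interval 33.6%), against 14.6% of X-linked genes. The part of gene structure in the class counts was not tested.

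**Figure D2:**
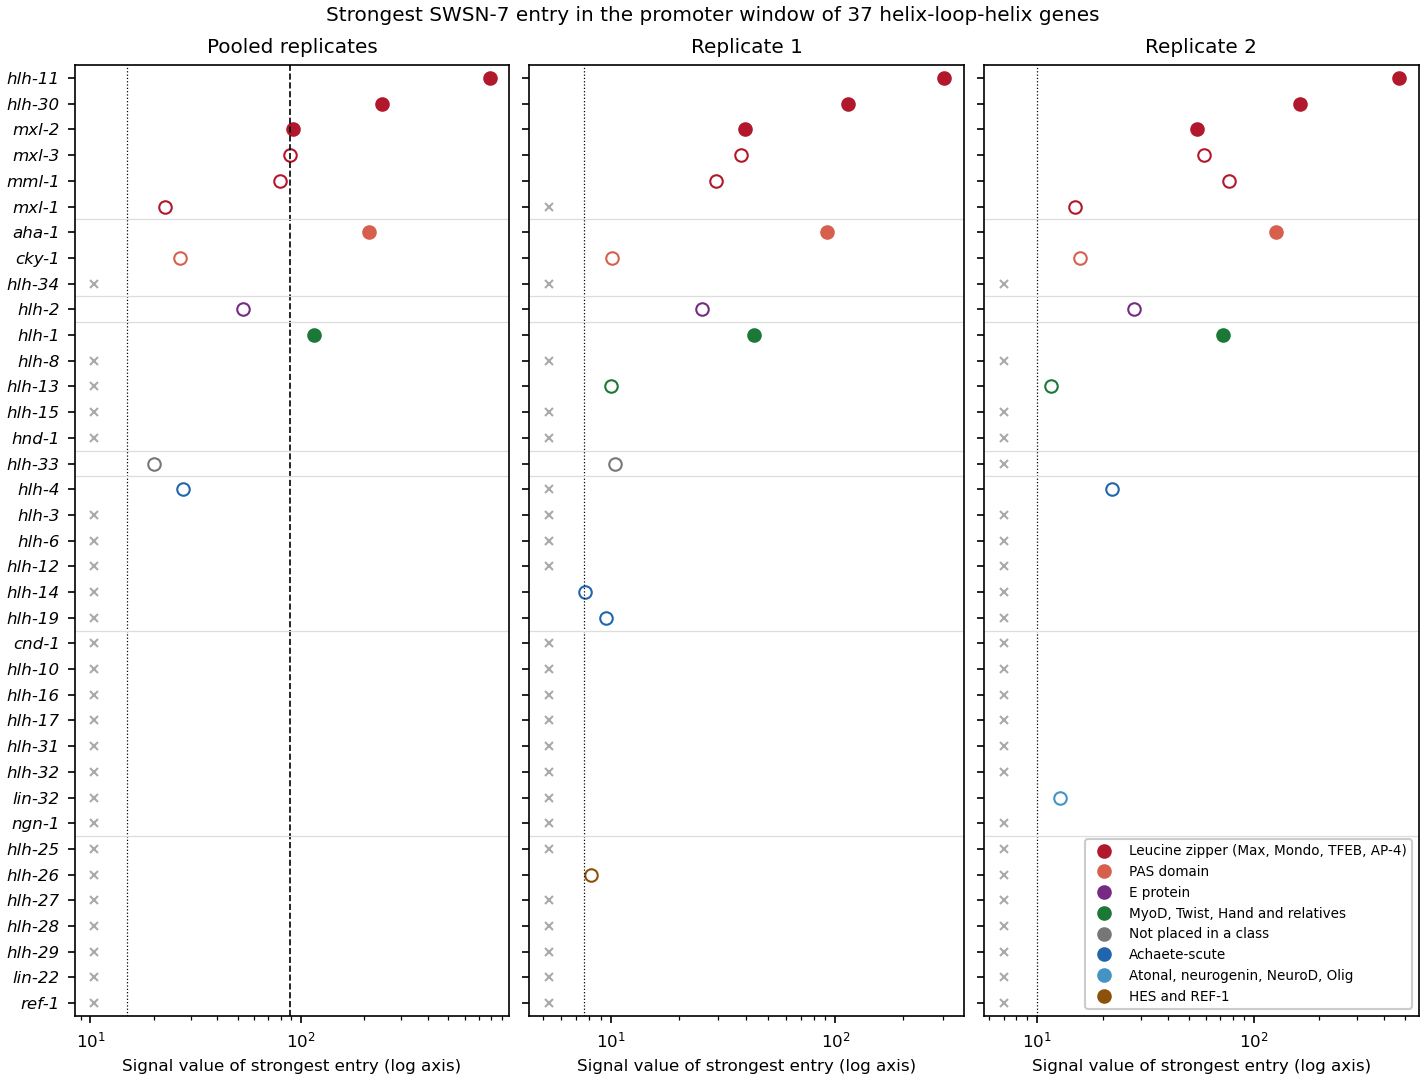
Signal value of the strongest entry in the promoter window of each of the 37 genes (log axes), in the pooled, replicate 1 and replicate 2 lists, whose scales differ. Filled points are genes with an IDR summit, open points have candidates alone, crosses are genes not listed, the dotted line is the lowest value of each list and the dashed line the lowest IDR value; hlh-11 is highest in all 3.

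The strongest entry with its summit in a window or intron of the family belonged to hlh-11 (WBGene00001955), the worm AP-4 homologue, a repressor of fat breakdown. It spanned chromosome III from 9619058 to 9619754, with the summit 317 bp upstream of the first 5′ end, and its signal value, the peak caller's measure of enrichment, was 788 in the pooled list. Its matches were 305 in replicate 1 and 469 in replicate 2. It ranked 204 of 4087 IDR entries, and the same summit, or one within 4 bp of it, was the strongest in the hlh-11 window in each replicate. The median over all 3179 genes with an IDR summit in the window was 223, so hlh-11 was above it. No other gene's promoter window held this summit. A second IDR entry, with a pooled value of 131, lay in the first intron (III, 9620349 to 9620472), 624 bp past the nearest 5′ end, with 46.4 in replicate 1 and 81.3 in replicate 2. Weaker candidates stood near the internal 5′ ends, the highest at 63.6 with its summit 18 bp upstream of one of them. In all, 7 pooled entries lay in hlh-11 introns. Of 1055 genes of similar intron length, 13 (hlh-11 included) had as many or more, and their median was 1. By IDR summits in introns, 101 of those 1055 genes had at least the 1 of hlh-11. Both comparisons were chosen after the values were seen.

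The gene hlh-30 (WBGene00020930) encodes the TFEB homologue, which drives lysosomal and autophagy genes. It is the longest member, at 20159 bp, with 10 annotated 5′ ends, and it held 5 IDR entries, more than any other member. Of these, 3 lay in promoter windows. The first was at -102 bp from the most upstream 5′ end (IV, 4034987 to 4035149; pooled 178, 92.8 in replicate 1 and 86.4 in replicate 2). The next was at -227 bp from an internal 5′ end (IV, 4028162 to 4028475; pooled 243, 96.8 and 164). The last was at -992 bp from the downstream set of 5′ ends (IV, 4019923 to 4020136; pooled 229, 114 and 109), and its summit fell in W02C12.4, a noncoding RNA gene on the other strand. The last 2 were also intronic in longer transcripts.

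The remaining 2 hlh-30 entries were in introns alone. One was the strongest of the gene (IV, 4024202 to 4024443; pooled 255), with 94.6 in replicate 1 and 167 in replicate 2, at 2761 bp past the nearest 5′ end. The other (IV, 4026031 to 4026183; pooled 162) had 64.0 and 108, at 932 bp past it. The replicates ranked the 5 differently: the entry at -992 bp was highest in replicate 1, whereas the intronic entry at 2761 bp was highest in replicate 2. Of 19286 genes with an intron, 23 (hlh-30 included) had as many IDR summits in introns as the 4 of hlh-30, or more. Its introns are long, 17.7 kb in all, and among 179 genes of similar intron length 9 (hlh-30 included) had 4 or more, the highest having 9. With 23 intronic pooled entries, hlh-30 had as many as the highest of those 179 genes, whose median was 4; it and 1 other gene reached that number. These comparisons were also chosen after their values were seen.

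**Figure D3:**
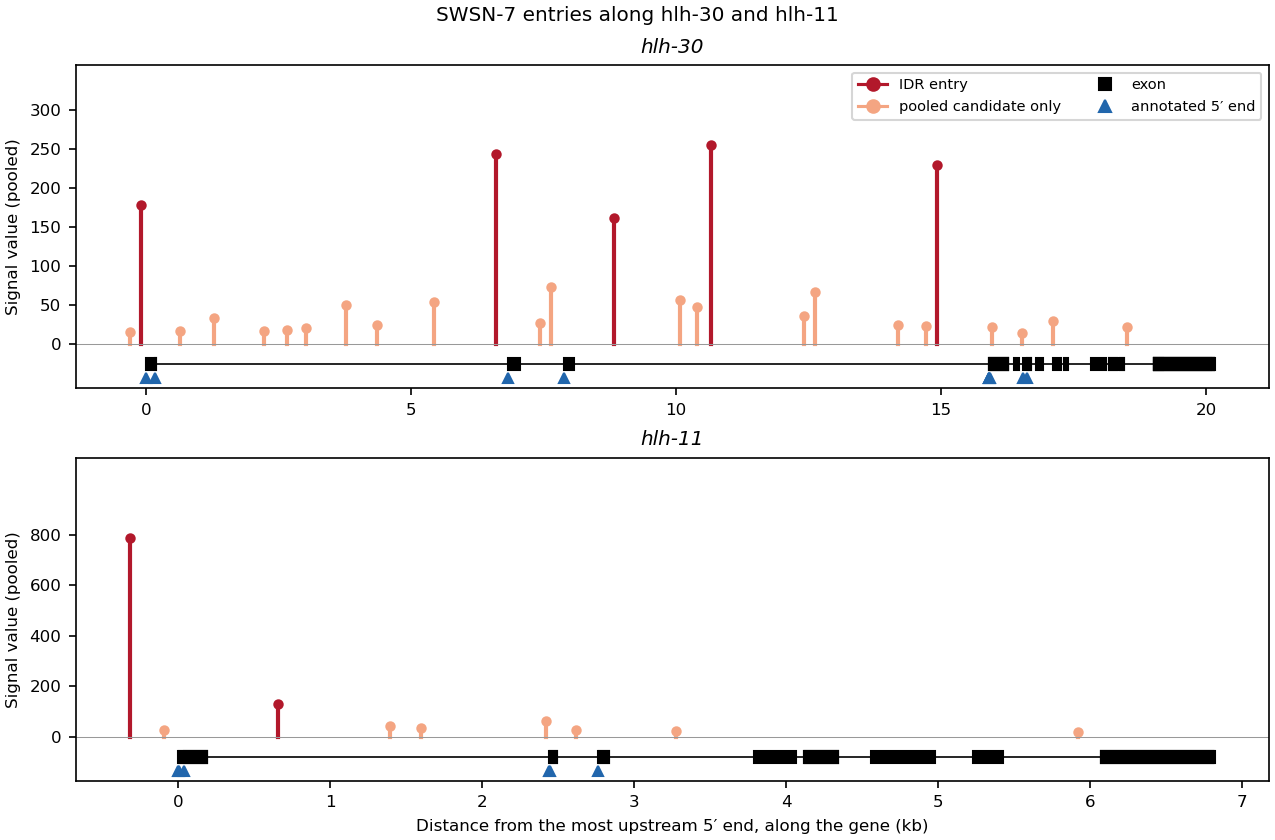
Pooled signal value of each pooled entry with its summit in a promoter window or intron of hlh-30 or hlh-11 (stems, at the summit). The axis is distance in kb from the most upstream 5′ end, with exons as black boxes and annotated 5′ ends as triangles. The 5 IDR entries of hlh-30 are spread from its first 5′ end to 14915 bp along it, whereas 1 entry upstream of hlh-11 stands at 788.

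The other leucine zipper genes encode proteins of the Max and Mondo network, and their values lay close to the lowest IDR value or below it. Above it was mxl-2 (WBGene00003510), the Mlx homologue, whose entry had a pooled value of 91.7, with 39.6 in replicate 1 and 54.7 in replicate 2 (III, 188482 to 188881). Its summit was 551 bp upstream of mxl-2 but 156 bp upstream of ubc-20, a ubiquitin-conjugating enzyme gene that starts in the opposite direction. Just short of it was mxl-3, a Max-like repressor of lysosomal fat-breakdown genes in fed animals. Its pooled value was 88.3 at -138 bp, with 38.0 and 58.9 in the replicates, and it ranked 4091 in the pooled list, 4 places below the last IDR entry. The lowest IDR value was 88.4, and the 4087 IDR signal values were those of the strongest 4087 pooled entries. For mml-1, the Myc and Mondo homologue that pairs with MXL-2, the strongest pooled value in the window was 79.2 at -940 bp. In the window of mml-1 the strongest entry of replicate 1 was 29.2 at -312 bp and that of replicate 2 was 76.7 at -965 bp, so the replicates' strongest summits were different ones. An IDR entry of 268 lay further upstream of mml-1, at -1853 bp, outside the window and nearest to mml-1 among protein-coding 5′ ends, with 87.4 in replicate 1 and 178 in replicate 2. An intron of mml-1 held a pooled candidate of 20.5, listed in neither replicate. Lowest of the class was mxl-1, the Max homologue, with 22.7 at -57 bp, listed at 14.9 in replicate 2 and not listed in replicate 1.

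Among the PAS genes, aha-1 (WBGene00000095), the ARNT homologue and common partner of the worm PAS factors, had an IDR entry of 209.5 at -201 bp, with 91.2 in replicate 1 and 126 in replicate 2. The same summit was 123 bp upstream of C25A1.15, which starts in the opposite direction, so the entry cannot be assigned to one of the pair. The NPAS4 relative cky-1 had 26.7 at -104 bp, with 10.1 and 15.7 in the replicates, and hlh-34 had no entry in window or introns.

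The gene hlh-1 (WBGene00001948), encodes the MyoD homologue of body wall muscle and had an IDR entry of 116 with its summit at -37 bp (II, 4518337 to 4518736), and no other gene shared it. Its values were 43.2 in replicate 1 and 72.4 in replicate 2. A candidate of 67.4 stood in an hlh-1 intron at 1319 bp past the nearest 5′ end, with 34.6 and 29.1 in the replicates. The Twist homologue hlh-8 had no window entry in any list, but had an intronic candidate of 24.0, listed in replicate 2 at 13.0 and absent from the list of replicate 1. The Hand homologue hnd-1 and hlh-15 had no entry, and hlh-13 was listed in the replicates alone, at 10.0 and 11.6, with summits at -866 and -654 bp. These values were near the lowest of each list, which were 7.57 and 9.98.

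The broadly used dimerization partner hlh-2, the E protein and daughterless homologue, had a pooled candidate of 53.3 at -145 bp, with 25.4 in replicate 1 and 27.9 in replicate 2. Both replicates placed it within 50 bp of the pooled summit. The other members with candidates in the window were hlh-4 of the achaete-scute class (27.6 at 28 bp, not listed in replicate 1 and 22.2 in replicate 2) and hlh-33 (19.985 at -24 bp, 10.4 in replicate 1 and not listed in replicate 2). The 7 members with candidates but no IDR summit had a median pooled value of 27.6, in a range from 19.985 to 88.3.

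Of the 14 achaete-scute and atonal relatives, many of them known from neurons, 9 had no entry in any list, against 37.7% of all genes, and the difference was not tested. The atonal homologue lin-32, which acts in sensory neurons, had an entry in replicate 2 alone, at 12.7 and -252 bp. The neurogenin homologue ngn-1 had none, and the NeuroD homologue cnd-1 had 1 intronic entry in replicate 2 alone, at 10.4. Olig relatives such as hlh-17, hlh-31 and hlh-32, which include a glial marker gene, had none. Neither did hlh-10, hlh-16, hlh-3, the pharyngeal gland factor hlh-6 and hlh-12, which acts in the distal tip cells. The achaete-scute relatives hlh-14 and hlh-19 were listed in the window by replicate 1 alone, at 7.66 and 9.46, and hlh-19 also had a pooled intronic candidate of 17.8. Of the HES-like genes, lin-22 and ref-1 had none, nor had the REF-1 family genes hlh-25, hlh-27, hlh-28 and hlh-29, and hlh-26 had 1 entry in replicate 1 alone, at 8.13. For ngn-1, ref-1 and lin-22 the nearest IDR summits were 11632, 17530 and 10311 bp from the 5′ end, each nearer to the 5′ end of another gene (mdf-2, arv-1 and ndnf-1).

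Some members are near-identical copies, at which listed entries depend on how shared reads were placed. Words of 31 bases were unique in the genome for 20.5% and 21.1% of the windows of hlh-28 and hlh-29, and for 56.5% and 56.7% of those of hlh-25 and hlh-27. For hlh-17 it was 80.2%, and for the other 32 members it was 90.6% or more. The absence of entries at those copies is therefore uncertain, whereas the windows of lin-32, cnd-1, hlh-3 and ref-1 were unique throughout.

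Outside the windows, the 32 members with no IDR summit were a median of 8363 bp from the nearest one, against 12264 bp for the 16794 genes in the same state, and 8 of 32 (25%) had one within 5000 bp, against 23.4%. The fourth strongest IDR entry of the genome (2808, with 1473 in replicate 1 and 1420 in replicate 2; II, 5543327 to 5544497) was the nearest to 3 REF-1 family genes, at 3344 bp upstream of hlh-27 and 8318 and 9815 bp from hlh-25 and hlh-26. That entry overlapped the small nuclear RNA genes sls-2.2 and sls-2.3, spliced leader RNA genes, and its nearest protein-coding 5′ end was that of ins-13. For lin-32 the nearest IDR entry (205, with 99.2 and 104 in the replicates; X, 2227192 to 2227378) lay 1757 bp past the end of the gene and overlapped a tRNA gene. For mxl-3 the nearest IDR entry, at 96.0, overlapped the gene, with its summit 124 bp past the gene's end. Its replicate values differed, at 60.3 and 25.01. For hlh-33 the nearest IDR entry (860, with 389 and 476 in the replicates; III, 1859592 to 1859877) also overlapped the gene. Its summit was 149 bp past the gene's end and 137 bp upstream of ddp-1.

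**Figure D4:**
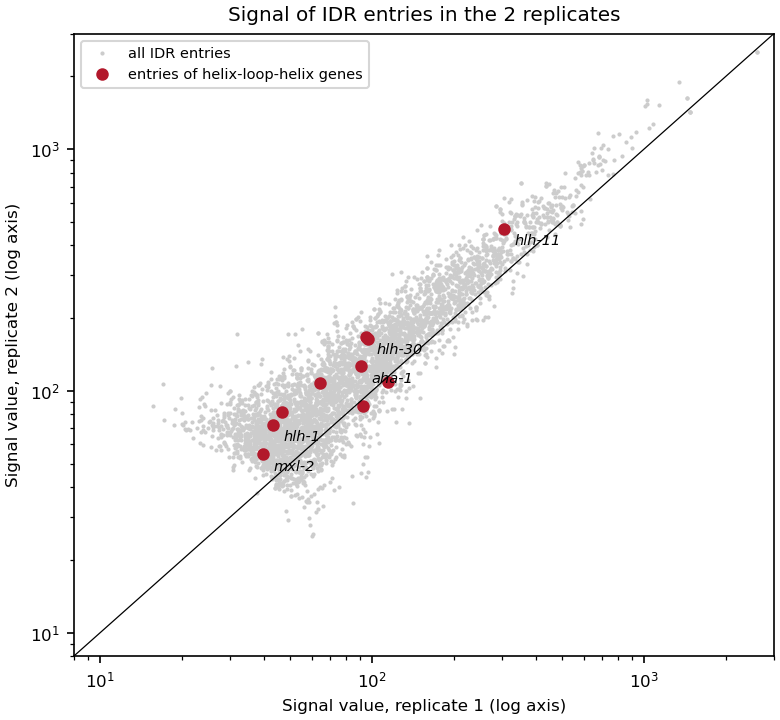
Signal value of IDR entries in replicate 1 and replicate 2 (log axes), with the 10 entries of helix-loop-helix genes in red, 1 label per gene and the line of equal values. All red points but 2, both of hlh-30, lie above the line.

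The 10 IDR entries in windows or introns of members were matched in both replicates. The log2 ratio of replicate 2 to replicate 1 had a median of 0.68 over these 10 (SD 0.35, range -0.10 to 0.82) and of 0.44 (SD 0.44) over 4077 matched IDR entries that include them. The 2 lists are scaled separately, and the ratio has no meaning beyond that comparison. The 2 entries that were not higher in replicate 2 were both of hlh-30, at -102 and -992 bp. Of the 10, 5 came from hlh-30, so they are not 10 independent cases.

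The sequence under the 10 entries was searched for E-boxes and GA repeats. Most of the 10 entries came from hlh-30 and hlh-11, so shares of them are given without intervals. In 200 bp around the summit, 4 of 10 entries (40%) held CANNTG, which reads the same on both strands. The share was 58.2% over all IDR entries and 51.1% over 200 bp stretches before the most upstream 5′ end of every protein-coding gene. Over the whole entry it was 5 of 10, against 69.6% of all IDR entries. In 200 bp around the summit, the 6 strongest entries held none. CACGTG, the form preferred by many but not all of the leucine zipper factors, was in 1 of 10, the hlh-30 entry at 932 bp. It was in 7.32% of IDR entries and 4.21% of promoters. Over the whole entry CACGTG was in 2 of 10, against 9.79% of IDR entries. GAGAGA, or TCTCTC on the other strand, was a motif chosen after the sequences were read. It was in 8 of 10 (80%), against 45.5% of IDR entries and 16.3% of promoters. It was in all 5 of hlh-30, both of hlh-11 and that of aha-1, and not in those of hlh-1 and mxl-2. It was in the printed stretches of hlh-11 and hlh-30. The median GC content was 52.25% over the 10 and 44% over all IDR entries. Such matches describe letters and not bound factors.

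Helix-loop-helix genes and partners outside the rule were looked at for comparison, without a test. Of 4 further helix-loop-helix genes, 2 had an IDR summit in the window, against 15.9% of all genes, and 2 had one in an intron, against 3.52%. For mdl-1, the Mad homologue that pairs with MXL-1, the pooled value was 335 at -71 bp (156 in replicate 1 and 186 in replicate 2), with another of 395 in an intron (163 and 243). For hif-1, the hypoxia factor that pairs with AHA-1, there were 3 IDR entries in the window, the highest 292 at -97 bp (138 and 154). The same entry was the intronic one of hif-1, so it is counted under both headings. The strongest for ahr-1 was a candidate of 26.1, and sbp-1, the SREBP homologue, had no IDR or pooled entry. Of 8 partners and regulators, 1 had an IDR summit in the window, the Groucho homologue unc-37, a co-repressor of HES-type factors, at 200.8 and -192 bp (80.1 and 107). In introns, lag-1, the DNA-binding factor of Notch signalling, had 441 (158 and 275) and let-363, the TOR kinase gene, had 206 (92.2 and 124). The Notch receptor genes lin-12 and glp-1 had no IDR or pooled entry.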

How the data were processed

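Chromatin immunoprecipitation and sequencing was done on 2 biological replicates in 1 group. The authors aligned reads to ce10 and ce11, made candidate lists that include background, 1 per replicate and 1 from both replicates pooled, and a list filtered by IDR, per the readme files. Not given in the sources used here: aligner, peak caller, versions and the handling of reads that match several copies. The deposited signal value, the authors' measure of enrichment, is comparable within a list only. Each candidate list held 30000 entries, with lowest values of 14.9 (pooled), 7.57 (replicate 1) and 9.98 (replicate 2), so an entry not listed may lie below these. Read depth is unknown. No control chromatin was analysed here. The replicates shared 0 identical entries; the labels call them biological replicates without naming cultures.

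Summits were placed against ce11 gene models of Ensembl release 115. An intronic summit lay in an intron of a transcript and in no exon of that gene. Replicate entries were matched to IDR entries by at least 1 bp, taking the strongest. The ce10 IDR list was used for its number of entries alone. The members, classes and lists were chosen with earlier results of these data known. Members with an IDR summit, the 5 strongest others in windows and the 3 strongest others in introns, and hlh-1, hlh-2, hlh-8, lin-32, ngn-1, cnd-1, ref-1 and lin-22 were named by rule; further members were named so that all were accounted for. Placement of summits was tested on simulated data. Python 3.11.15, pandas 2.3.3 and scipy 1.17.1 were used.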

Additional observations from a re-analysis of the deposited data

How the results depend on the processing

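The count of 5 members with an IDR summit in the promoter window (15.9% of all genes) fell to 3 among the strongest 2043 IDR entries (9.56% of all genes; without hlh-1 and mxl-2), to 3 where the window was cut to 300 bp either way (10.1%; without hlh-11 and mxl-2) and to 3 when each summit was given to the nearest 5′ end alone (11.9%; without aha-1 and mxl-2). Only hlh-30 was in all of these sets. It also had the most 5′ ends (10), the widest window (6447 bp) and 3 IDR entries in that window, whereas hlh-11, aha-1, hlh-1 and mxl-2 had 1 each. The strongest 4087 entries of 1 replicate alone gave 5 to 7 (15.6 and 15.8% of all genes), mxl-3 and mml-1 joining without replicate 1. Extending the window to 2000 bp upstream gave 6 (3995 of 19973 genes), mml-1 joining. Counting entries that overlap the window left it at 5 (16.7% of all genes). Of the alternatives chosen after seeing the data, the strongest 5112 pooled entries, the number in the ce10 IDR list, gave 7 (18.3%; mxl-3 and mml-1 joining). Merging overlapping entries, also chosen in that way, gave 5 (15.9%). For introns, there were 2 members, against 3.52% of genes with an intron. The count fell to 1 among the strongest 2043 entries (1.76%), hlh-30 remaining, and rose to 3 where any overlap counted (4.60%). CACGTG was in 1 of 10 member entries and in 2 over the whole entry, a setting added after seeing the data for that motif. The other counts of members and of entries with CANNTG or GAGAGA stayed within 1.5 times under the settings run. No paired analysis was possible because there was 1 group. Unknown depth, 2 replicates and lists capped at a fixed number limit what absence of an entry shows.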
